A study of Homo sapiens with 6 samples.

Results

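The 10 genes described here encode histone variants and high mobility group (HMG) proteins of chromatin. H2AZ1 and H2AZ2 encode histone H2A.Z, H3-3A and H3-3B encode histone H3.3, H2AX encodes H2A.X, and HMGB1, HMGB2, HMGN1, HMGN2 and HMGA1 represent the 3 classes of HMG protein. The set was chosen with earlier results of these data known, and its members were found by gene name. Their rows held 45 transcript models with 16008 counts, out of 10072 genes, 21472 models and 6784575 counts in the whole table, which is 0.236% of all counts. The libraries came from Calu-6 cells, an established human lung carcinoma line, 48 h after transfection with 10 nM of a non-silencing siRNA (siControl, 3 libraries) or of an siRNA against the joined exons 1 and 5 of TERT Delta 2-4, a splice variant without exons 2 to 4 (siDelta2-4, 3 libraries). The labels gave the genotype of both groups as WT, whereas the column names carried the word Empty, which the study used for cells that stably express an empty Flag-V5 vector. The comparison asks which transcripts differ when this TERT variant is targeted. The table had 0 rows for TERT, so the targeted transcript was not checked in these counts.

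Variant histones are made throughout the cell cycle, mostly from genes with introns whose transcripts are polyadenylated, and they take the place of the S-phase histones in nucleosomes that are opened, transcribed or repaired. H2A.Z is placed at promoters by the SRCAP and p400 complexes, H3.3 is deposited by HIRA in active genes and by DAXX and ATRX at telomeres and other repeats, and H2A.X is phosphorylated around DNA breaks. HMGB proteins bend DNA, HMGN proteins bind the nucleosome core, and HMGA proteins bind AT-rich DNA and are often abundant in carcinoma cells.

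The H3.3 genes encode the same protein with different codons, and the 2 H2A.Z genes encode proteins that differ at few residues, so the reads of such a pair are told apart by base differences. The first 60 bases of the coding sequences, read from the Gencode 44 transcripts, are shown for this reason, with capitals where the members of a pair differ. The pseudogene H3P6 is shown beside them without capitals, because it had 0 differences from H3-3A over these bases.
H3-3A: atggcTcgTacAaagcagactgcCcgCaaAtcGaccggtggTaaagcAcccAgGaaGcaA
H3-3B: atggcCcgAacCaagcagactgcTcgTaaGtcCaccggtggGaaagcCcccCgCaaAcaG
H3P6: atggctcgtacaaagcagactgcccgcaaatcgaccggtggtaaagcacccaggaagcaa
H2AZ1: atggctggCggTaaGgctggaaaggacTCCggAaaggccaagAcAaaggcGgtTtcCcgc
H2AZ2: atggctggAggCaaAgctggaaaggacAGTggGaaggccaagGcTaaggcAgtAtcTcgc

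H3-3A and H3-3B differed at 13 of these bases and H2AZ1 and H2AZ2 at 12. Over the whole coding sequence, H3-3A and H3-3B were identical at 78.59% of 411 bases and H2AZ1 and H2AZ2 at 80.36% of 387 bases. HMGB1 and HMGB2 were identical at 75% of 648 aligned positions, and HMGN1 and HMGN2 at 55.8% of 319. The pairs within this set were therefore far less alike than H3-3A and H3P6, whose counts are given below.

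The totals of the 6 libraries were between 1037468 and 1309241 counts. Libraries are named by their group and by their depth within it (deepest, middle or mid-depth, shallowest), since the columns could be matched to a group but not to a barcode. The shallowest siControl library stood apart from the other siControl libraries. It lay at -0.36 on the first principal component of all genes tested, between the other siControl libraries (-16.9 and -15.2) and the siDelta2-4 libraries (8.71 to 13.8). The rank correlation of a gene's deviation with the mean length of its models was also positive in this library (0.12 across the genes tested, as a description), as in the 3 siDelta2-4 libraries (0.14 to 0.36), and negative in the other siControl libraries (-0.32 and -0.33). The part of either difference in the results was not tested. For the members and their models, values are given without this library or with the length trend removed where they change a call. Of the 6 epithelial markers, KRT8 (824 counts), KRT18 (1124), KRT7 (41) and EPCAM (13) were counted in every library, KRT19 had 1 count and CDH1 was at 0, as were all 6 markers of lung epithelium. Of the 5 mesenchymal markers, VIM had 987 counts and FN1 2, and CDH2, COL1A1 and COL1A2 were at 0. PTPRC, CD3E and the 3 endothelial markers were at 0, and CD68 had 12 counts. A change in RNA per cell and a change in the make-up of the culture cannot be told apart in such bulk libraries.

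H2AZ1 was the most abundant of the 10 genes, and the order ran from H2AZ1 through H3-3B, HMGB1, HMGN2, H3-3A and HMGB2 to H2AZ2 on the scale of CPM (counts per 1000000 counts of the library, with totals scaled by TMM, the trimmed mean of M values). The mean level over the 6 libraries was 1017 CPM for H2AZ1 and 54.4 CPM for H2AZ2. Divided by the mean length of the models, the level of H2AZ1 was 1170 CPM per kb, that of H3-3A came next with 198 CPM per kb, and HMGN2 (139 CPM per kb), H3-3B (137 CPM per kb), HMGB2 (98.2 CPM per kb) and HMGB1 (64.5 CPM per kb) followed. The CPM ranges over the 6 libraries overlapped between H3-3B and HMGB1, between HMGB1 and HMGN2 and between HMGN2 and H3-3A, and did not overlap at the other steps of the order of CPM. The place of H3-3A leaves out the counts of the pseudogene H3P6, and the level of H2AZ1 leaves out those of H2AZ1-DT, a gene on the other strand. H3-3A and H3P6 together were at 465 CPM in siControl and 625 CPM in siDelta2-4, beside 393 and 330 CPM for H3-3B. H2AX, HMGN1 and HMGA1 were at or near the limit of detection, with 26 counts in all.

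**Figure D1:**
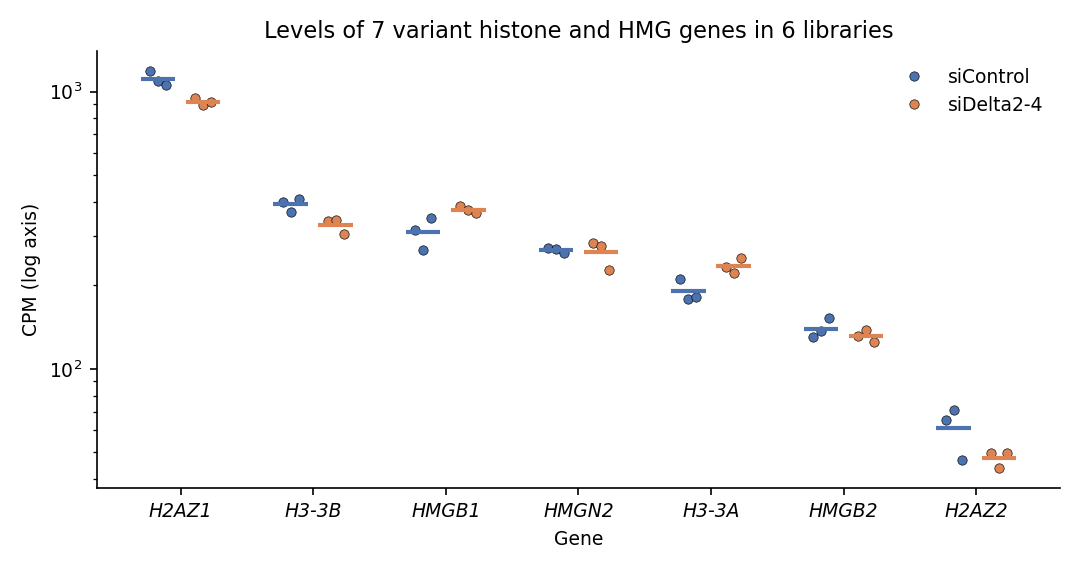
CPM of the 7 genes with enough counts to be tested, on a log axis, for each of the 3 siControl and 3 siDelta2-4 libraries (points) with the mean of each group (line). H2AZ1 lies near 1017 CPM and H2AZ2 near 54.4 CPM, and the groups do not overlap for H2AZ1, H3-3B, HMGB1 and H3-3A.

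Counts summed per gene were compared between the groups with the quasi-likelihood test of edgeR, with Benjamini-Hochberg adjustment over all genes tested and a call at an adjusted p under 0.1. Of the 10 genes, 7 passed the filter on low counts. H3-3A was called higher and H2AZ1 lower in siDelta2-4, so that 2 of 7 were called, against 13% of the 3888 genes tested (7% called higher and 5.97% called lower). For 4 of the 7 (H2AZ1, H3-3A, H3-3B and HMGB1) every CPM value of one group lay above those of the other, against 26% of all genes tested. The median log2 fold change of the 7 genes was -0.089, beside 0.027 over all genes tested. The split of calls moved with the scaling. With the size factors of DESeq2 in the same fit, H2AZ1 and H3-3B were called lower and no member higher, while with library totals alone H3-3A and HMGB1 were called higher and H2AZ1 lower, and the median of all genes rose to 0.095. Over all genes, 272 were called higher and 232 lower, with 249 and 265 under the DESeq2 size factors and 361 and 152 under library totals alone. Without the shallowest siControl library, 5 of 7 members were called, against 25.4% of 4098 genes.

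**Figure D2:**
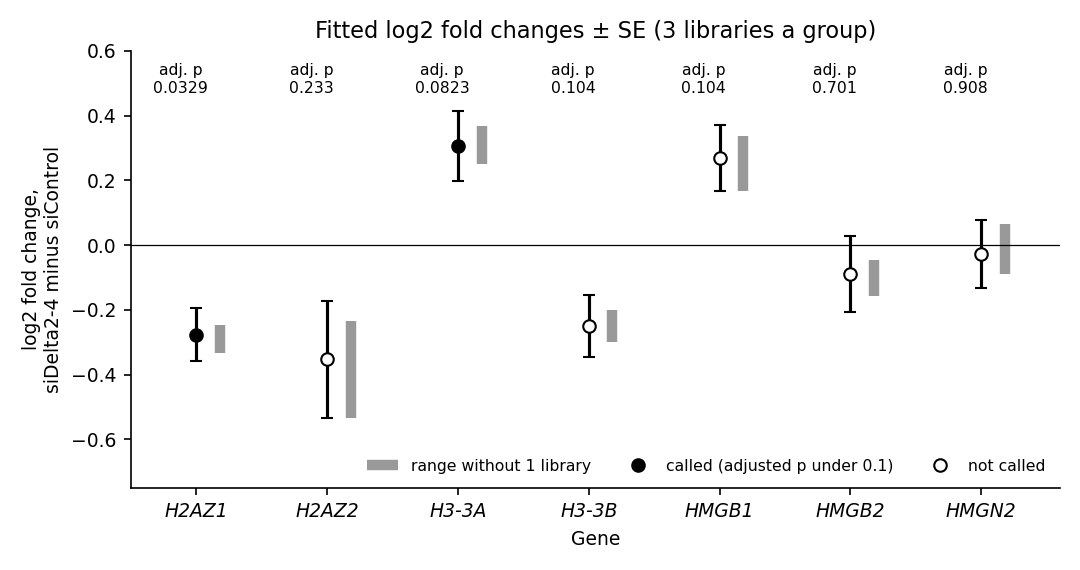
Log2 fold change (siDelta2-4 minus siControl) of each tested gene with its SE from the edgeR fit of 3 libraries a group, filled where called, beside the range of the same value when 1 library is left out (grey bar). H2AZ1 (adjusted p = 0.0329) and H3-3A (adjusted p = 0.0823) are the called genes, and the grey bar crosses 0 for HMGN2 alone.

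H2AZ1 (ENSG00000164032.12, GRCh38 chr4:99948086-99950355, minus strand) encodes an H2A.Z protein. It was at 1189, 1093 and 1059 CPM in siControl (deepest, middle and shallowest library), and at 920, 892 and 947 CPM in siDelta2-4 (same order). Every siDelta2-4 library was below every siControl library. The mean was 1114 ± 67.5 CPM in siControl and 919.6 ± 27.3 CPM in siDelta2-4 (SD, n = 3), and the log2 fold change was -0.28 ± 0.081 (SE) at an edgeR adjusted p of 0.0329. H2AZ1 kept this direction under all 20 alternatives and the call under 16 of them. The call was lost when the deepest (adjusted p = 0.116) or mid-depth (0.108) siControl library, or the mid-depth (0.144) or deepest (0.124) siDelta2-4 library, was left out of the edgeR fit.

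The divergent long non-coding gene H2AZ1-DT (ENSG00000245322.8, chr4:99950006-100195099, plus strand) overlaps the 5′ end of H2AZ1 on the other strand. It had 6440 counts beside 6774 for H2AZ1, and its CPM values were 1150, 1071 and 1021 in siControl (same order of depth) and 873, 817 and 874 in siDelta2-4. All 8 of its models had been added by TALON, and 7 of them had 5 exons and the longest 876 nt, beside 5 exons and 866 nt in the leading H2AZ1 transcript. The counts of H2AZ1-DT were between 0.964 and 0.980 of those of H2AZ1 in the siControl libraries. In the siDelta2-4 libraries they were between 0.916 and 0.949, without overlap between the groups. H2AZ1-DT was called lower as well, with a fitted log2 fold change of -0.34 ± 0.082 (SE) at an edgeR adjusted p of 0.00983. The sources used here do not say whether TALON assigned reads by strand, so reads of H2AZ1 and of H2AZ1-DT cannot be told apart in these counts. With the H2AZ1-DT counts added to H2AZ1, an alternative chosen after seeing the data, H2AZ1 remained called lower (-0.31, edgeR adjusted p = 0.0131).

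H2AZ2 (ENSG00000105968.19, chr7:44826791-44848087, minus strand) encodes the other H2A.Z protein and was the least abundant of the tested genes. Its CPM values were 65.3, 71.0 and 46.9 in siControl (deepest, middle and shallowest library), and 49.9, 43.9 and 49.6 in siDelta2-4 (same order). The shallowest siControl library lay within the siDelta2-4 range. The log2 fold change was -0.35 ± 0.18 (SE) at an edgeR adjusted p of 0.233, with a 95% interval from -0.72 to 0.015. Without the shallowest siControl library the value was -0.54 (edgeR adjusted p = 0.0228), and with the length trend removed it was -0.53 (0.0995). The 2 H2A.Z genes together were at 1175 ± 74.8 CPM in siControl and at 967 ± 30.2 CPM in siDelta2-4 (SD, n = 3), without overlap between the groups.

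H3-3A (ENSG00000163041.13, chr1:226061851-226072019, plus strand) and H3-3B (ENSG00000132475.10, chr17:75776434-75785893, minus strand) encode the same H3.3 protein, and the signs of their log2 fold changes were opposite, with a call for H3-3A alone. H3-3A was at 211, 178 and 181 CPM in siControl (deepest, middle and shallowest library) and at 250.2, 221 and 233 CPM in siDelta2-4 (same order), so that the groups did not overlap. The mean was 190.0 ± 17.9 CPM in siControl and 235 ± 14.6 CPM in siDelta2-4 (SD, n = 3), and the log2 fold change was 0.31 ± 0.11 (SE) at an edgeR adjusted p of 0.0823. H3-3A was above 0 under all 20 alternatives and was called under 11. It was called in 2 of the 6 fits that left out 1 library, and lost the call without the mid-depth siControl library (0.26, edgeR adjusted p = 0.296) or without any 1 of the siDelta2-4 libraries (adjusted p = 0.181 without the shallowest, 0.133 without the mid-depth and 0.294 without the deepest). With the length trend removed the log2 fold change was 0.20 (edgeR adjusted p = 0.282), and with the DESeq2 Wald test it was 0.28 (adjusted p = 0.174).

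H3-3B was at 399, 368 and 411 CPM in siControl (deepest, middle and shallowest library) and at 307, 344 and 340 CPM in siDelta2-4 (same order), again without overlap. The mean was 393 ± 22.0 CPM in siControl and 330.2 ± 20.2 CPM in siDelta2-4 (SD, n = 3). The log2 fold change of -0.25 ± 0.096 (SE) had an edgeR adjusted p of 0.104 and missed the threshold. It was below 0 under all 20 alternatives and called under 8 of them, among them the DESeq2 Wald test (adjusted p = 0.0831), the fit with the length trend removed (-0.43, edgeR adjusted p = 0.00361) and the fit without the shallowest siControl library (edgeR adjusted p = 0.0658). UNK, annotated on the other strand over the 5′ part of H3-3B, had 31 counts and was not tested. The sum of both H3.3 genes was 583 ± 32.4 CPM in siControl and 565 ± 7.98 CPM in siDelta2-4 (SD, n = 3), and there the groups overlapped.

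H3P6 (ENSG00000235655.3, chr2:174719908-174720318, plus strand) is a processed pseudogene of H3-3A with 1 exon, and it had more counts than H3-3A itself, 2262 beside 1438. All 411 bases of the annotated copy were identical to the coding sequence of H3-3A. The genomic sequence around it, chr2:174719800-174720840, matched bases 12 to 1053 of the 1070 bases of the leading H3-3A transcript with 0 mismatches and 1 gap, whereas 88 mismatches separated the annotated copy from the coding sequence of H3-3B. H3P6 was at 247, 277 and 302 CPM in siControl (deepest, middle and shallowest library) and at 407, 353 and 411 CPM in siDelta2-4 (same order). Every siDelta2-4 library was above every siControl library, and the log2 fold change was 0.50 ± 0.10 (SE) at an edgeR adjusted p of 0.00232. This call held under all 17 alternatives, with values between 0.41 and 0.62.

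A read from a spliced H3-3A transcript and a read from the H3P6 locus would be nearly the same, so the counts of both genes are uncertain as to their source. With the H3P pseudogenes added to H3-3A, an alternative chosen after seeing the data, the log2 fold change was 0.42 (edgeR adjusted p = 0.00395). H3-3A and H3P6 together were at 465 ± 15.2 CPM in siControl and at 625 ± 44.6 CPM in siDelta2-4, and with H3-3B added the sums were 858 ± 35.0 and 956 ± 33.9 CPM (SD, n = 3), both without overlap between the groups. The H3.3 sum therefore overlapped between the groups without H3P6 and did not overlap with it. The other H3P pseudogenes in the table, H3P16 and H3P25, had 5 and 53 counts and were not tested.

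**Figure D3:**
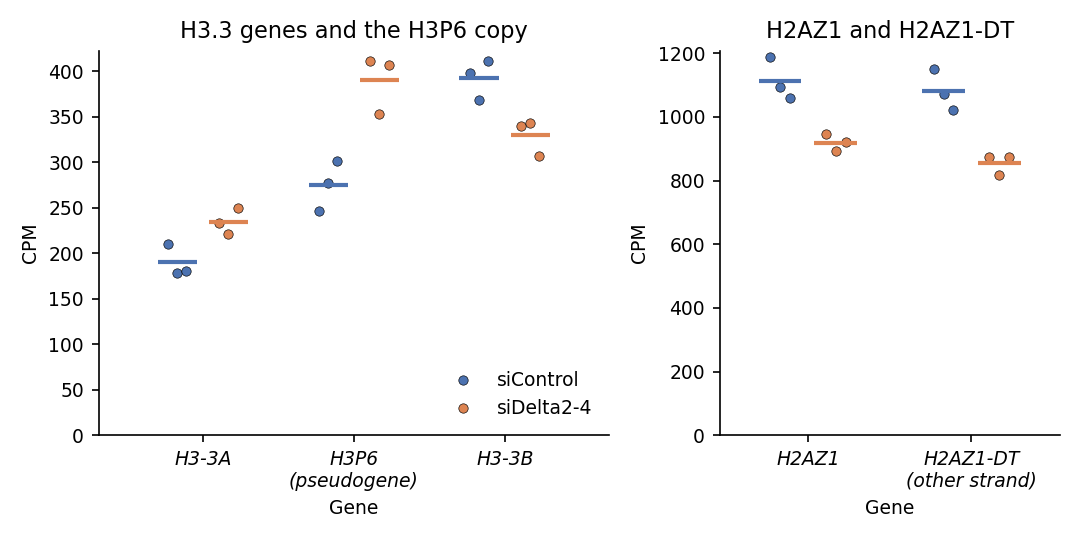
CPM in each library (points) and group means (lines) of the H3.3 genes with the processed pseudogene H3P6 (left) and of H2AZ1 with H2AZ1-DT on the other strand (right), on linear axes from 0. H3-3A and H3P6 are higher and H3-3B, H2AZ1 and H2AZ1-DT lower in the siDelta2-4 libraries, without overlap between the groups.

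The ratio of a pair of genes within a library does not depend on the scaling of the library. The ratio of H3-3A to H3-3B counts was 0.528, 0.484 and 0.441 in siControl (deepest, middle and shallowest library), and 0.815, 0.643 and 0.686 in siDelta2-4 (same order). On the log2 scale the siControl mean of -1.05 ± 0.13 compared with -0.49 ± 0.18 for siDelta2-4 (SD, n = 3), a difference of 0.56 (two-sided exact permutation p = 0.1, adjusted p = 0.15 over 3 ratios). With 3 libraries a group, 0.1 is the smallest p this test allows. These ratios leave out the counts of H3P6. With the H3P pseudogenes added to H3-3A, an alternative chosen after seeing the data, the log2 ratio to H3-3B was above 0 in every library. Its mean was then 0.27 ± 0.055 in siControl and 0.94 ± 0.18 in siDelta2-4 (SD, n = 3). The ratio of HMGB1 to HMGB2 was between 1.95 and 2.45 in siControl and between 2.71 and 2.96 in siDelta2-4, also without overlap, with a difference of 0.36 on the log2 scale (two-sided exact permutation p = 0.1, adjusted p = 0.15). The ratio of H2AZ1 to H2AZ2 was between 15.4 and 22.6 in siControl and between 18.4 and 20.3 in siDelta2-4, a log2 difference of 0.059 (two-sided exact permutation p = 0.7), and the siDelta2-4 ratios lay within the siControl range. No ratio was computed for HMGN1 and HMGN2, since HMGN1 had 0 counts in 1 library.

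**Figure D4:**
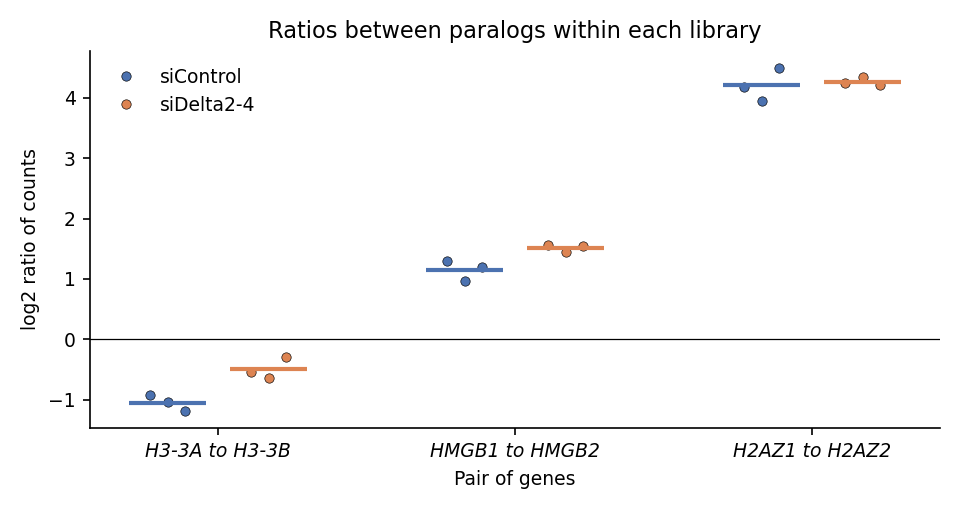
Log2 ratio of the counts of 3 pairs of genes in each library (points) with the group means (lines), with 0 where both genes of a pair have equal counts. Counts of the pseudogene H3P6 are not added to H3-3A. The siDelta2-4 libraries lie above all siControl libraries for H3-3A to H3-3B (difference 0.56) and HMGB1 to HMGB2 (difference 0.36) and within the siControl range for H2AZ1 to H2AZ2.

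HMGB1 (ENSG00000189403.15, chr13:30456704-30617597, minus strand), a DNA-bending protein that also acts as an alarm signal when cells release it, was at 318, 268 and 349 CPM in siControl (deepest, middle and shallowest library) and at 364, 375 and 388 CPM in siDelta2-4 (same order). The groups did not overlap, although the shallowest siControl library came close to the siDelta2-4 values. The mean was 311 ± 40.9 CPM in siControl and 375 ± 11.98 CPM in siDelta2-4 (SD, n = 3), and the log2 fold change of 0.27 ± 0.10 (SE) at an edgeR adjusted p of 0.104 missed the threshold. Without the shallowest siControl library it was 0.34 (edgeR adjusted p = 0.0105), with library totals alone 0.34 (0.0467), and with the length trend removed 0.11 (0.547). HMGB1P5, a pseudogene with 98.25% identity to the HMGB1 transcript over 1201 aligned positions, had 113 counts and a log2 fold change of 0.17 ± 0.29 (SE) at an edgeR adjusted p of 0.772, and HMGB1P6 had 24 counts and was not tested.

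HMGB2 (ENSG00000164104.12, chr4:173331376-173334432, minus strand), the HMGB protein of proliferating cells, was at 130, 137 and 152 CPM in siControl (deepest, middle and shallowest library) and at 125, 138 and 131 CPM in siDelta2-4 (same order). The groups overlapped, and the log2 fold change was -0.089 ± 0.12 (SE) at an edgeR adjusted p of 0.701, with a 95% interval from -0.33 to 0.15. HMGN2 (ENSG00000198830.12, chr1:26472440-26476642, plus strand), which binds the nucleosome core, was at 272, 270.4 and 261 CPM in siControl and at 228, 277 and 284 CPM in siDelta2-4 (same order of depth). The deepest siDelta2-4 library lay below and the other siDelta2-4 libraries above all siControl libraries. The log2 fold change of HMGN2 was -0.029 ± 0.11 (SE) at an edgeR adjusted p of 0.908, and its sign turned with library totals alone and without the deepest siDelta2-4 library. Its pseudogenes HMGN2P3 (51 counts), HMGN2P4 (14 counts) and HMGN2P6 (1 count) were not tested, nor were HMGN1P36 and H2AZ2P1 with 3 counts each.

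H2AX (ENSG00000188486.4, chr11:119093874-119095465, minus strand), the histone phosphorylated at DNA breaks, had 6 counts in all. It was counted 1, 0 and 3 times in siControl (deepest, middle and shallowest library) and 0, 0 and 2 times in siDelta2-4 (same order). HMGN1 (ENSG00000205581.11, chr21:39342315-39349647, minus strand), the partner of HMGN2, was counted 2, 3 and 1 times in siControl (same order of depth) and 3, 3 and 0 times in siDelta2-4. HMGA1 (ENSG00000137309.21, chr6:34236873-34246231, plus strand), the AT-hook protein, was counted 1, 3 and 1 times in siControl and 0, 0 and 3 times in siDelta2-4. None of the 18 values exceeded 3 counts, the limit that a count of 0 allows, which corresponds to 2.29 to 2.89 CPM in these libraries. Therefore no fold change is given, and no difference was detectable with so few counts. These limits cover counting error only.

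The reads were counted per transcript model, and most genes had 1 leading model. Of the 45 models, 34 were annotated (known) and held 90.3% of the members' counts, and the other 11 had been added by TALON, with 5 incomplete splice matches (ISM, a part of an annotated transcript), 5 new combinations of annotated splice sites and 1 model, at HMGN2, with a splice site outside the annotation. H3-3A-203 (4 exons, 1070 nt) held 98.5% of the H3-3A counts, H3-3B-201 (4 exons, 2705 nt) 94.0% of those of H3-3B, HMGB1-203 (5 exons, 5456 nt) 96.1% and HMGN2-201 (6 exons, 1940 nt) 96.2%. The next models of H3-3A, H3-3A-201 and H3-3A-202, had 11 and 6 counts. Those of H3-3B were a TALON model of 1729 nt with 75 counts and the single-exon H3-3B-203 with 36 counts, and that of HMGN2 was a TALON model of 1267 nt with 58 counts. HMGB1 had a TALON model of 2248 nt with 52 counts and an ISM of 2037 nt with 38 counts. HMGA1-202 held 7 of the 8 HMGA1 counts, and its coding sequence differed from that of HMGA1-201 by a gap of 33 bases and 0 mismatches.

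H2AZ1 and H2AZ2 were more mixed. H2AZ1-201 (5 exons, 866 nt) held 79.3% of the H2AZ1 counts, an ISM of 889 nt 10.7% and a TALON model of 872 nt 2.79%. At H2AZ2 an ISM of 1224 nt with 4 exons held 49.2% and the annotated H2AZ2-202 (5 exons, 3026 nt) 43.9%. Over all libraries together, a shorter model with fewer exons thus had more counts (178) than the leading annotated transcript (159). The order was the reverse in the deepest siControl library (29 beside 35) and in the middle siDelta2-4 library (25 beside 28). H2AZ2-203 followed with 11 counts. The share of known models at H2AZ2 came to 53.5% ± 4.27 for siControl and 48.6% ± 5.33 for siDelta2-4 (SD, n = 3, two-sided exact permutation p = 0.3, adjusted p = 0.5 over 5 genes), and 82.5% ± 0.775 and 83.6% ± 0.976 for H2AZ1 (two-sided exact permutation p = 0.3, adjusted p = 0.5). The share of known models overlapped between the groups for all 5 genes.

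Of the 18 models tested, 2 were called, against 6.91% of 6768 models. H3-3A-203 was at 188 ± 12.9 CPM in siControl and 238 ± 12.02 CPM in siDelta2-4 (SD, n = 3), for a log2 fold change of 0.34 ± 0.11 (SE) at an edgeR adjusted p of 0.0636. HMGB1-203 was at 299 ± 48.4 and 372 ± 11.7 CPM, for a log2 fold change of 0.31 ± 0.10 (SE) at an edgeR adjusted p of 0.0920. HMGB1-203 was called while the summed gene was not, but models were scaled and adjusted in a fit of their own. With library totals alone, HMGB1-203 (0.35, edgeR adjusted p = 0.0604) and the summed gene (0.34, edgeR adjusted p = 0.0467) were both called. Of the 6 fits that left out 1 library, H3-3A-203 kept its call without the deepest or the shallowest siControl library and HMGB1-203 without the shallowest siControl library, and otherwise the edgeR adjusted p was between 0.138 and 0.324 for H3-3A-203 and between 0.197 and 0.512 for HMGB1-203. With the DESeq2 Wald test both lost their call (adjusted p = 0.151 and 0.159). H2AZ1-201 was at 879 ± 43.5 and 756 ± 15.8 CPM (log2 fold change -0.22 ± 0.075, edgeR adjusted p = 0.101), and was the 1 member model called by DESeq2 (adjusted p = 0.0978). Without the shallowest siControl library H2AZ1-201 was called lower (-0.27, edgeR adjusted p = 0.00997). In that fit the H2AZ1 ISM models of 889 nt (-0.35, 0.0859) and 682 nt (-1.18, 0.0607) were called lower as well.

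The mix of models within a gene was tested for 5 members with diffSpliceDGE, and 0 were called, against 0.618% of 1132 genes. At an unadjusted p under 0.05 there were also 0 members. HMGB2 had the lowest diffSpliceDGE adjusted p (0.576). The leading model HMGB2-201 (5 exons, 1441 nt) made up 79.1% ± 0.547 of the HMGB2 counts in siControl and 84.7% ± 1.57 in siDelta2-4, while HMGB2-202 (4 exons, 1032 nt) made up 13.3% ± 0.652 and 9.09% ± 1.76 and HMGB2-203 (1175 nt) 7.11% ± 1.20 and 5.79% ± 1.24 (SD, n = 3). These 3 transcripts have the same coding sequence of 630 bases and differ in what follows it, with 704 bases in HMGB2-201 and 379 in the others, and in what precedes it. The count-weighted mean length of the HMGB2 models was 1369 ± 2.85 nt in siControl and 1390 ± 10.7 nt in siDelta2-4, without overlap between the groups (two-sided exact permutation p = 0.1, adjusted p = 0.7 over 7 genes). Of the 7 genes, HMGB2 alone had mean lengths that did not overlap between the groups. The share of all genes without such overlap was not computed, so this count is given as a description and not as a trait of HMGB2. Across all genes tested, deviations also rose with model length in the siDelta2-4 libraries (rank correlation 0.14 to 0.36) and in the shallowest siControl library (0.12). The part of this trend in the HMGB2 lengths was not tested.

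**Figure D5:**
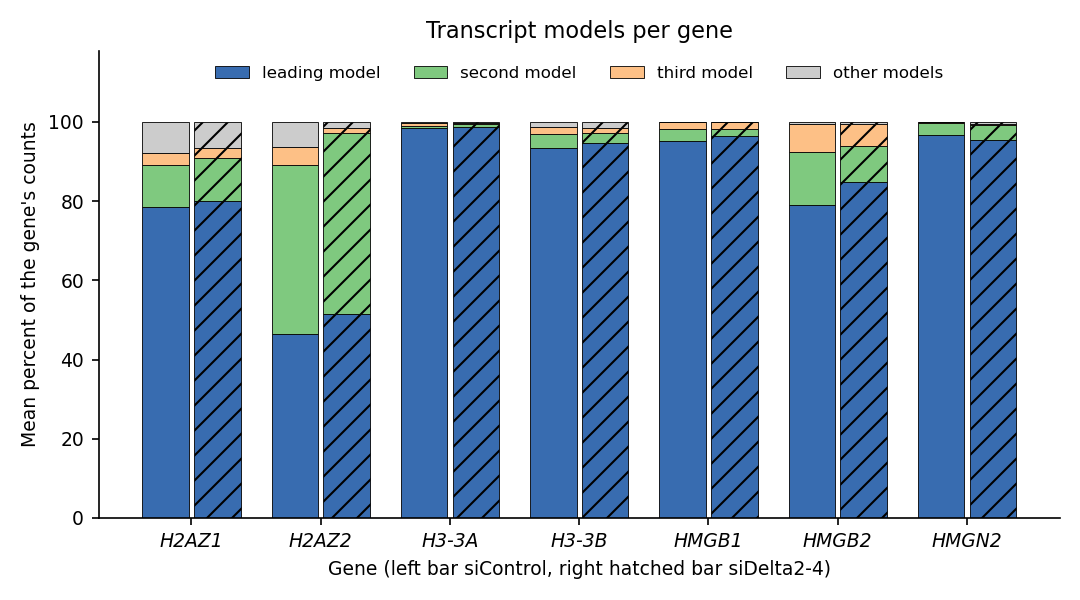
Mean percent of a gene's counts on its 3 most counted models and on the rest, for the 7 tested genes in siControl (left bar) and siDelta2-4 (right, hatched bar), each over 3 libraries. H2AZ2 is split between an ISM and H2AZ2-202, and the leading model of HMGB2 goes from 79.1% to 84.7%.

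Genes that work with these proteins were read from the same edgeR fit in 4 lists. Among 62 histone chaperones and exchange factors, 39 had counts, 17 were tested, 3 were called higher and 0 lower, against 7% and 5.97% of all genes tested, with a median log2 fold change of 0.28 beside 0.027 over all genes (0.12 with the length trend removed). NPM1, a nucleolar histone chaperone, had a log2 fold change of 0.39 ± 0.091 (SE) at an edgeR adjusted p of 0.00763, NAP1L1, a chaperone of H2A and H2B, 0.70 ± 0.19 (adjusted p = 0.0226) and MORF4L1, a subunit of acetyltransferase and deacetylase complexes, 0.56 ± 0.19 (adjusted p = 0.0655). The call of NPM1 was lost without the mid-depth siControl library (edgeR adjusted p = 0.114), and those of NAP1L1 and MORF4L1 were lost in 2 and 4 of the 6 fits that left out 1 library. NAP1L1 lost its call without the mid-depth siControl library (edgeR adjusted p = 0.142) or the mid-depth siDelta2-4 library (0.119), and in these 6 fits MORF4L1 kept its call without the shallowest siControl or the deepest siDelta2-4 library and otherwise had adjusted p values between 0.108 and 0.293. MORF4L1 also lost its call with the DESeq2 Wald test (adjusted p = 0.166), without a filter on low counts (edgeR adjusted p = 0.119), with the length trend removed (0.201) and with the replicate block on the column numbers (0.121).

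Most other histone genes had too few counts to be tested. The transcripts of S-phase histones end in a stem-loop in place of a polyA tail, and these libraries were made from polyA RNA. Whether this bears on the low counts was not tested. Of 88 genes 54 had counts and 6 were tested, 0 were called higher and 2 lower (7% and 5.97% over all genes), with a median of -0.22. H1-3 fell from 23.8 ± 6.83 to 9.0 ± 3.29 CPM (SD, n = 3, log2 fold change -1.37 ± 0.32, edgeR adjusted p = 0.00846) and H1-5 from 28.3 ± 5.24 to 16.8 ± 4.65 CPM (-0.74 ± 0.26, adjusted p = 0.0836). Both are linker histones expressed in S phase, and they had 107 and 149 counts in all. H1-3 was called in all 6 fits that left out 1 library and H1-5 in 2 of them, without the shallowest siControl library or the deepest siDelta2-4 library (otherwise adjusted p between 0.157 and 0.321). When every library had to hold at least 10 counts, H1-3 was not tested, and H1-5 was called (edgeR adjusted p = 0.0619). The call of H1-3 thus rests on few counts in siDelta2-4. DESeq2 gave no adjusted p for either gene, and the call of H1-5 was lost with library totals alone (edgeR adjusted p = 0.127), with the length trend removed (0.101) and with the replicate block (0.144).

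Of 18 other HMG and HMG-box genes, 11 had counts, 3 were tested and 1 was called lower (5.97% over all genes), HMGN3, a relative of HMGN1 and HMGN2, for a log2 fold change of -0.43 ± 0.14 (SE) at an edgeR adjusted p of 0.0585. The call of HMGN3 was lost in 3 of the 6 fits that left out 1 library (adjusted p = 0.224 without the mid-depth siControl library, 0.172 without the mid-depth and 0.237 without the deepest siDelta2-4 library) and was also lost with library totals alone (0.151) and with the replicate block (0.126). HMGN3-AS1, on the other strand, had 656 counts beside 650 for HMGN3 and a log2 fold change of -0.38, and their reads cannot be told apart without strand. It was named after its values were seen. Of 40 genes of proliferation, 35 had counts, 24 were tested and 0 were called by edgeR or DESeq2. Over all genes, 13% were called by edgeR, and 254 genes were called by DESeq2. At an unadjusted p under 0.05 there were 3 by edgeR, beside 900 of all 3888 genes tested, and 0 by DESeq2. The median of the list was -0.12 and 16 of the 24 were below 0, beside 1794 of the 3888 genes tested. The most counted were TUBA1B, an alpha tubulin (log2 fold change -0.12 ± 0.094, edgeR adjusted p = 0.489), RAN, a GTPase of nuclear transport and spindle assembly (0.13 ± 0.082, adjusted p = 0.368), and CKS1B, a subunit of cyclin-dependent kinases (-0.12 ± 0.097, adjusted p = 0.487).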

How the data were processed

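Long-read PCR-cDNA libraries of polyA RNA were pooled and sequenced by the authors on a MinION. Per the labels and the study's methods, the authors aligned reads to GRCh38.p14 (minimap2 2.14, SAMtools 1.13), then used TranscriptClean for correction and TALON with Gencode 44 for annotation. The deposited values were raw counts per transcript model, not normalised. All 6398 unannotated models had at least 5 counts in each siDelta2-4 library, and 5173 had as many in each siControl library. Of all models, 0 lacked a count in siDelta2-4 and 4526 lacked a count in siControl. The rows kept therefore depended on siDelta2-4. With the same row rule for both groups, 478 genes and 2 members were called. The strand setting was not given in the sources used here.

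Counts were summed per gene and compared in R 4.3.3 by the quasi-likelihood test of edgeR 4.0.16 (TMM, filterByExpr, 2 groups, no covariate, Benjamini-Hochberg over all genes, adjusted p under 0.1). The same test was run on models, and diffSpliceDGE on model usage. The SE was the size of the log2 fold change over the root of F. Ratios, shares and lengths were compared over libraries with exact permutation tests (scipy 1.17.1). Alternatives were DESeq2 1.42.0, other scalings, filters and thresholds, removal of a length trend (loess, span 0.4), known models alone, added copies, a replicate block and leaving out each library. Libraries with the same column number showed no clear likeness (correlations 0.039, -0.14 and -0.084), and whether they were paired cannot be told from these values. The scripts were tested on simulated data. Sequences and coordinates came from Gencode 44 on GRCh38. The study called the libraries of a group biological replicates, and no source used here says that they came from separate cultures, so p-values measure the spread between these libraries.

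Named were all members, their up to 3 most counted and all called models, pseudogenes named after a member, genes overlapping a member on the other strand, and of each list the called genes or otherwise the 3 most counted. The members and lists were chosen with earlier results of these data known.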

Additional observations from a re-analysis of the deposited data

How the results depend on the processing

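The number of genes called, 504 with the main settings, was 254 with DESeq2, 252 with known models alone, 299 with column numbers as a replicate block, 304 at an adjusted p under 0.05 and 194 to 1041 when 1 library was left out. Members called, 2, became 1 without a filter, 1 with the block, 1 at 0.05, 4 when every library had to hold at least 10 counts, and 0 to 5 without 1 library. Genes of the 4 lists called, 6, became 3 with DESeq2, 3 with the block, 3 at 0.05 and 1 to 9 without 1 library. Models called, 468, became 222 with DESeq2, 294 at 0.05 and 173 to 1113 without 1 library, and member models called, 2, became 1 (H2AZ1-201, not among those 2), 0 and 0 to 5. The highest number of each came without the shallowest siControl library. The block changed no other count by more than 1.5 times, and among the members it ended the call of H3-3A (adjusted p = 0.132) and in the lists those of MORF4L1 (0.121), HMGN3 (0.126) and H1-5 (0.144). The sign of the log2 fold change turned for HMGN2 (0.041 with library totals, -0.090 to 0.065 without 1 library), HMGN2-201 (0.028, -0.078 to 0.079), HMGB2-201 (-0.024 to 0.093), HMGB1P5 (-0.013 to 0.27) and the H2AZ2 model of 1224 nt (-0.37 to 0.019), none of them called. The H2AZ1 to H2AZ2 log2 difference was -0.073 to 0.20 without 1 library. Differences in mean length turned for H2AZ1 (-0.59 to 1.55 nt without 1 library, -0.32 with known models alone), HMGB1 (-2.33 with known models alone) and H3-3B (-3.14 to 16.3 without 1 library). The cause of these changes was not tested. The log2 differences of the H3-3A to H3-3B ratio (0.46 to 0.67) and of the HMGB1 to HMGB2 ratio (0.27 to 0.43) stayed above 0 under their alternatives and moved by less than 1 SD, pooled over both groups. H2AX, HMGN1 and HMGA1 had too few counts to be compared, and the cause of their low counts was not tested.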
